A study of Kluyveromyces lactis with 17 samples.

Results

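This account compares the transcripts of a Kluyveromyces lactis strain that lacks SIR2 with those of a wild-type strain at 45 µg/L nicotinic acid, the second lowest of the vitamin levels tested. The comparison rests on 4 of the 17 libraries of the series, chosen by strain and vitamin level: 2 of the wild type (WT, strain LRY2992, MATa SIR2 hmlΔ hmrΔ) and 2 of the mutant (sir2Δ, strain LRY2993, MATα sir2Δ hmlΔ hmrΔ). HML and HMR, the silent copies of the mating-type genes, are deleted in both strains, and each genotype is 1 strain. The strains differ in SIR2 and in mating type at once, so in every value below the effects of the deletion and of mating type cannot be told apart. Cells were grown overnight at 30 °C in minimal glucose medium with 400 µg/L nicotinic acid and then spent 4 h in the same medium with 15, 45, 135 or 400 µg/L. Polyadenylated RNA was sequenced as paired reads of 150 bp, and the series text gives 2 independent biological replicates for each strain and level.

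Sir2 is a protein deacetylase that uses NAD+ as a co-substrate, and budding yeasts use it to keep chromatin silent at mating-type loci and near chromosome ends. In K. lactis, Sir2 also acts with the DNA-binding repressor Sum1 at genes away from the ends, sporulation genes among them. This yeast makes NAD+ from nicotinic acid and related precursors taken up from the medium. Roles of named genes below are those known from Saccharomyces cerevisiae, whose symbols the K. lactis reference carries, unless another source is named.

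The 4 libraries at 45 µg/L held 24663143 to 36022436 reads. Ribosomal RNA took 10.6% of the reads in WT replicate 6 and 4.84% to 5.77% in the other 3 libraries. Replicates correlated across genes at r = 0.9914 in WT and 0.9891 in sir2Δ on the log2 scale. Among the libraries at other levels, library 1 of WT at 400 µg/L stood apart from its partners, with r = 0.9595 and 0.9638. A further library of the same number, 1R, was summed with it as 1 replicate. Levels are read counts scaled to library size (CPM), and differences as log2 fold changes of sir2Δ against WT ± SE with a Benjamini-Hochberg adjusted p from edgeR's quasi-likelihood test. Calls are made where that p is under 0.05.

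At 45 µg/L, 2069 of 5224 genes tested were called, which is 39.6%. Of these, 1092 (20.9%) were higher and 977 (18.7%) were lower in sir2Δ. These shares of all genes are the background for every count of list members below. A difference of at least 1 log2 unit was held by 178 of the higher genes (3.41%) and 211 of the lower genes (4.04%). The median over all genes was 0.00. In bulk RNA, fewer cells that express a gene and less RNA per cell cannot be told apart. With only the 4 libraries at this level in the fit, 1345 genes were called, 651 higher and 694 lower.

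**Figure D1:**
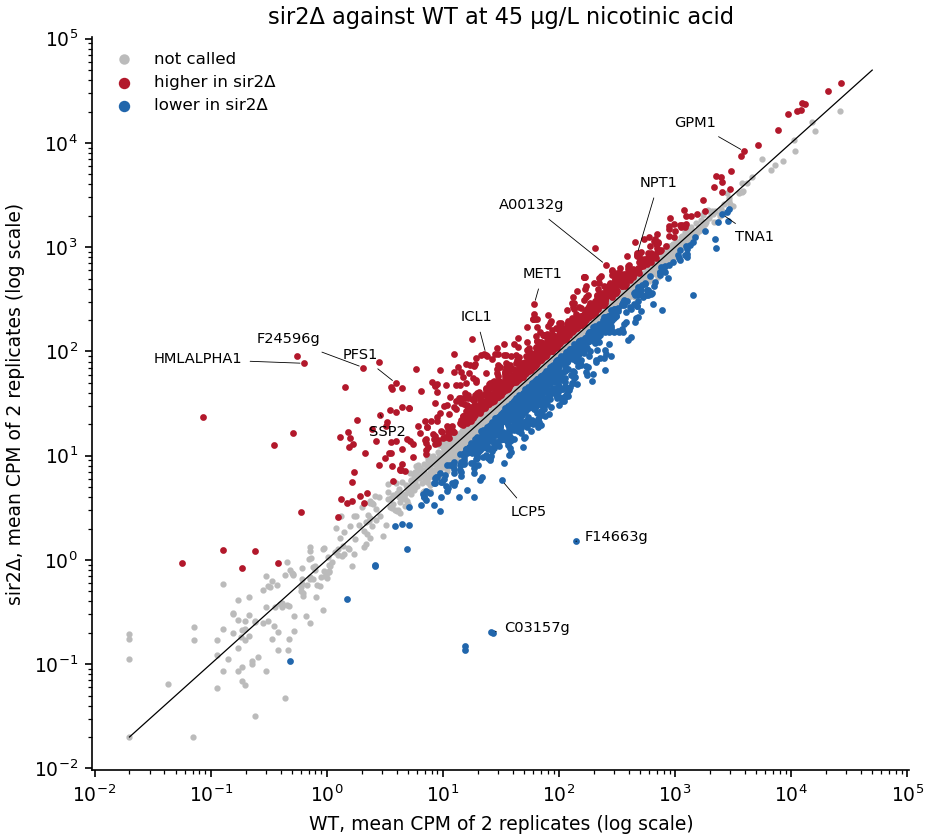
Mean level of each tested gene in WT (x axis) and sir2Δ (y axis) at 45 µg/L nicotinic acid, in CPM on log axes, with genes called higher in sir2Δ in red, lower in blue and not called in grey. Means under 0.02 CPM are drawn at 0.02, and the 1092 red and 977 blue genes lie on either side of the line of equal level.

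The deleted gene and the mating-type genes followed the labels. The reference gives KLLA0_F14663g no symbol, and it is taken here as SIR2 from prior knowledge of this species. It stood at 142 and 138 CPM in WT and at 0.917 and 2.09 CPM in sir2Δ, a difference of -6.61 ± 0.20 (adjusted p = 4e-12). HMLALPHA1, the name the reference gives to the gene of an α mating-type regulator, stood at 0.538 and 0.741 CPM in WT and at 73.9 and 79.9 CPM in sir2Δ (6.90 ± 0.29). HMLALPHA2, which encodes the other α regulator, had only 2 and 4 reads in the WT libraries and 22.4 and 25 CPM in sir2Δ. Its neighbour KLLA0_C00396g stood at 0.34 and 0.77 CPM in WT and at 93.1 and 88.1 CPM in sir2Δ (7.34 ± 0.37). The strains did not overlap at any of these 4 genes. HML and HMR are deleted in both strains per the labels, which give MATα for sir2Δ and MATa for WT. From which locus the reads on these genes came was not tested.

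A set of 4 genes in 2 neighbouring pairs showed the opposite pattern, with at most 0.342 CPM in any sir2Δ library at 45 µg/L. KLLA0_C03157g stood at 28.9 and 23.6 CPM in WT and at 0.0633 and 0.342 CPM in sir2Δ, and KLLA0_B14575g at 29.6 and 24.5 against 0.316 and 0.0854 CPM. The other members of the pairs, KLLA0_C03135g and KLLA0_B14553g, had differences of -6.86 ± 0.45 and -6.71 ± 0.34. Both pairs had nearly equal levels, and the handling of reads that match several genes is not given, so whether the pairs share reads was not tested. The sir2Δ values rest on few reads, and these differences vary with them. Mating receptors did not separate the strains in the same way. STE2, the receptor for α-factor that marks a cells, stood at 23.3 and 20.8 CPM in WT and at 22.2 in both sir2Δ libraries (0.01 ± 0.11, adjusted p = 0.97). STE3, the receptor for a-factor that marks α cells, was 0.26 ± 0.09 higher in sir2Δ (adjusted p = 0.036), a call that was lost without sir2Δ replicate 6 (0.14, adjusted p = 0.30), without WT replicate 5 (0.29, adjusted p = 0.063) and without WT replicate 6 (0.23, adjusted p = 0.15).

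Among called genes with at least 1 CPM in the higher strain and no overlap between strains, the highest differences beside the mating-type genes belonged to nuclear genes away from the chromosome ends with low levels in WT. KLLA0_F24596g stood at 2.04 and 2.08 CPM in WT and at 60.1 and 80.1 CPM in sir2Δ (5.08 ± 0.19, adjusted p = 5e-11). KLLA0_F05379g stood at 2.44 and 3.19 CPM in WT against 77.7 and 79.3 CPM (4.80 ± 0.25), and KLLA0_C17226g at 1.96 and 0.912 CPM against 44.3 and 47.2 CPM (4.99 ± 0.22). None of these 3 genes has a symbol, and in each the lowest sir2Δ library was far above the highest WT library. KLLA0_A05687g (5.01 ± 0.36) and KLLA0_D13288g (5.14 ± 0.42) were at most 0.595 CPM in WT. The other 4 of the 12 highest by this rule, the mating-type genes included, were PFS1, which acts in prospore membrane formation, KLLA0_B08261g, KLLA0_D02068g and KLLA0_B10219g, with differences of 3.57 to 3.66.

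In 6 of the 9 genes the WT share of the sir2Δ level was higher at 45 than at 400 µg/L, at most in PFS1 with 7.90% against 4.47%. In the other 3 genes it was lower, as in KLLA0_F24596g with 2.94% against 3.80% and in KLLA0_B08261g with 7.97% against 8.59%. In none of the 9 was a change of the strain difference between 45 and 400 µg/L called by edgeR, with changes of -0.73 to 0.42. At 15 µg/L, the WT level was 11.3% of the sir2Δ level in KLLA0_F24596g, 25.1% in KLLA0_F05379g and 47.6% in KLLA0_B08261g. The strain difference at 45 µg/L exceeded that at 15 µg/L by 2.80 in KLLA0_F05379g (adjusted p = 2.7e-05) and by 2.58 in KLLA0_B08261g (adjusted p = 1.8e-05).

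Middle and late sporulation genes, which build the spore and its wall, were higher in sir2Δ at 45 µg/L in 26 of 35 members tested and lower in 1, with a median of 0.78 against 0.00 over all genes. SSP2, needed for the spore wall, stood at 3.03 and 2.77 CPM in WT and at 26.8 and 22.8 CPM in sir2Δ (3.10 ± 0.16, adjusted p = 5.8e-10). RRT8, which acts in making the dityrosine layer of the spore wall, stood at 10.6 and 10.7 CPM in WT and at 45.2 and 49.4 CPM in sir2Δ (2.15 ± 0.12). SPR3, a septin of sporulating cells, stood at 17.6 and 15.9 against 63.7 and 60.6 CPM (1.89 ± 0.11). WT and sir2Δ did not overlap at these genes. OSW2 (1.81 ± 0.10), CRR1 (1.68 ± 0.11) and DTR1 (1.50 ± 0.08), all of the spore wall, were higher too, as was AMA1 (1.60 ± 0.16), an activator of the anaphase-promoting complex in meiosis. SHC1, a chitin synthase regulator, was the lower member (-0.51 ± 0.10).

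Early meiotic genes were higher in 12 of 25 members tested (48.0%, against 20.9% of all genes) and lower in none, with a median of 0.47. The 12 became 7 without WT replicate 6. IME2, a kinase that starts the meiotic programme, stood at 12.9 and 13.3 CPM in WT and at 30.0 and 25.8 CPM in sir2Δ (1.09 ± 0.13, adjusted p = 5.1e-06). NDT80, the transcription factor of middle sporulation genes, was 0.58 ± 0.15 higher, and its WT libraries, at 30.2 and 26.6 CPM, lay below the sir2Δ libraries at 49.5 and 35.1. SPO22, MUM2, ZIP1 and ZIP2, which act in meiotic chromosome pairing or entry, were 0.76 to 1.13 higher. IME1, the regulator that starts meiosis, stood at 31.8 and 28.5 CPM in WT against 43.1 and 34.3 CPM (0.36 ± 0.11, adjusted p = 0.015), a call lost without sir2Δ replicate 5 (0.19, adjusted p = 0.24) and without WT replicate 6 (0.28, adjusted p = 0.12). DMC1, REC8 and MSH4, of meiotic recombination and cohesion, differed by -0.13 to 0.10 with no call.

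Genes listed for NAD+ salvage, transport and related metabolism did not move as 1 group. Of 17 tested, 9 were higher (52.9%, against 20.9% of all genes) and 4 lower (23.5%, against 18.7%) in sir2Δ. Their median was 0.35. The 4 lower became 2 without WT replicate 5, WT replicate 6 or sir2Δ replicate 6. NPT1, which converts nicotinic acid to its mononucleotide, stood at 447 and 493 CPM in WT and at 836 and 855 CPM in sir2Δ (0.85 ± 0.08, adjusted p = 4.4e-07). BNA3, a kynurenine aminotransferase, stood at 218 and 223 against 443 and 454 CPM (1.02 ± 0.07, adjusted p = 1.8e-08). The strains did not overlap at either gene. QNS1, the NAD+ synthetase (0.38 ± 0.08), URH1, a nucleoside hydrolase (0.49 ± 0.08), and PNP1, a purine nucleoside phosphorylase (0.40 ± 0.09), were higher by smaller amounts.

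TNA1, the high-affinity nicotinic acid permease, had the reverse sign. It stood at 2590 and 2490 CPM in WT and at 2230 and 1920 CPM in sir2Δ, a difference of -0.29 ± 0.09 (adjusted p = 0.017). Both WT libraries were above both sir2Δ libraries, but the call was lost without WT replicate 5 (-0.26, adjusted p = 0.068), without sir2Δ replicate 6 (-0.19, adjusted p = 0.15) and with only the 4 libraries at this level in the fit (-0.30, adjusted p = 0.18). PNC1, the nicotinamidase, stood at 109 and 111 CPM in WT and at 88.1 and 94.3 CPM in sir2Δ (-0.27 ± 0.08, adjusted p = 0.015). MEU1, of methylthioadenosine salvage, was lower by the largest amount in the list (-0.69 ± 0.10). At 400 µg/L TNA1 was 2.15 higher in sir2Δ, with 408 and 439 CPM in the 2 WT replicates and 1860 and 1900 CPM in sir2Δ.

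The genes that carry the pheromone signal fell into different positions. STE4, the β subunit of the G protein, stood at 143 CPM in both WT libraries and at 150 and 148 CPM in sir2Δ (0.06 ± 0.08, adjusted p = 0.58). GPA1, the α subunit, stood at 27.5 and 27.2 against 48.0 and 52.8 CPM (0.88 ± 0.11, adjusted p = 9e-06). STE18, the γ subunit, stood at 1.79 and 1.68 against 7.24 and 6.62 CPM (2.0 ± 0.21, adjusted p = 1e-06). Between strains the G protein genes thus ranged from no call to a 4.00-fold difference, with WT at 95.9% of the sir2Δ level for STE4, 54.3% for GPA1 and 25% for STE18. At 400 µg/L these shares were 31.2%, 19.1% and 12.9%.

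Over the whole pheromone list, 9 of 33 members (27.3%, against 20.9% of all genes) were higher and 1 lower, with a median of 0.10. The 9 became 5 without WT replicate 6 and 7 without each of the other libraries at this level. PRM1, which acts in the fusion of mating cells, stood at 8.33 and 7.47 CPM in WT and at 24.2 and 19.1 CPM in sir2Δ (1.46 ± 0.16, adjusted p = 1.6e-06), and KAR4, a transcription factor of mating, was 0.68 ± 0.12 higher. FAR1, which links the signal to cell-cycle arrest, was the lower member (-0.34 ± 0.09), and its call was lost without WT replicate 5 (adjusted p = 0.052) and without sir2Δ replicate 6 (adjusted p = 0.051). Among 6 a-specific genes, BAR1, the α-factor protease (1.49 ± 0.12), and AGA2, an agglutinin subunit (2.39 ± 0.17), were higher in the MATα sir2Δ strain. STE6, AXL1, ASG7 and STE2 were not called, with values of -0.19 to 0.33.

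Genes nearest the chromosome ends were mostly higher in sir2Δ. Counting inwards from the 12 ends in the reference order, 46 of 60 genes at ranks 1 to 5 were called higher and 0 lower, with a median of 0.66. At ranks 6 to 15, 51 of 118 were higher and 15 lower (median 0.23). At ranks 16 to 30, 38 of 179 were higher and 34 lower (median 0.00), close to the 20.9% and 18.7% of all genes. HMLALPHA1, HMLALPHA2 and KLLA0_C00396g, described above with the mating-type labels, lie at ranks 12, 13 and 14 of the left end of chromosome C. They are among the 51 and are counted in all shares of ranks 1 to 15 below. The last gene of an end had a median difference of 1.67 at 45 µg/L, 4.41 at 400 µg/L and 0.54 at 15 µg/L. The ends were unequal: among the 15 outermost genes, 13 of 15 were higher at the right end of chromosome D and 3 of 15 at the right end of chromosome F.

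KLLA0_A00132g, the second gene from the left end of chromosome A, stood at 234 and 273 CPM in WT and at 658 and 696 CPM in sir2Δ (1.42 ± 0.13, adjusted p = 2.1e-07). In the same gene WT had 31.4 and 21.3 CPM at 400 µg/L and 743 and 707 CPM at 15 µg/L, while sir2Δ ranged from 646 to 779 CPM over all levels. The WT level was thus 4.00%, 37.5% and 95.5% of the sir2Δ level at 400, 45 and 15 µg/L. KLLA0_A00110g, the outermost gene of the same end, stood at 54.4 and 66.4 against 197 and 208 CPM (1.74 ± 0.14), with WT at 29.8% of sir2Δ. In both genes, WT at 45 µg/L lay between WT at 400 µg/L and sir2Δ without touching either.

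Several end genes may be copies. Among ranks 1 to 15, 25 genes formed 9 groups that had equal coding length at different ends and levels within 0.35 log2 units in all 8 strain and vitamin groups. One group joins 5 outermost genes at 60.1 to 62.4 CPM in WT and 203 to 229 CPM in sir2Δ, and another joins KLLA0_B00143g, KLLA0_D00143g, KLLA0_E00133g and KLLA0_F00154g at 166 to 169 and 512 to 514 CPM. Whether their reads were shared between copies was not tested. With each group counted once, 82 of 162 genes (50.6%) were higher at ranks 1 to 15, against 97 of 178 (54.5%) with all genes, and 31 of 45 at ranks 1 to 5. This count was chosen after the values were seen.

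**Figure D2:**
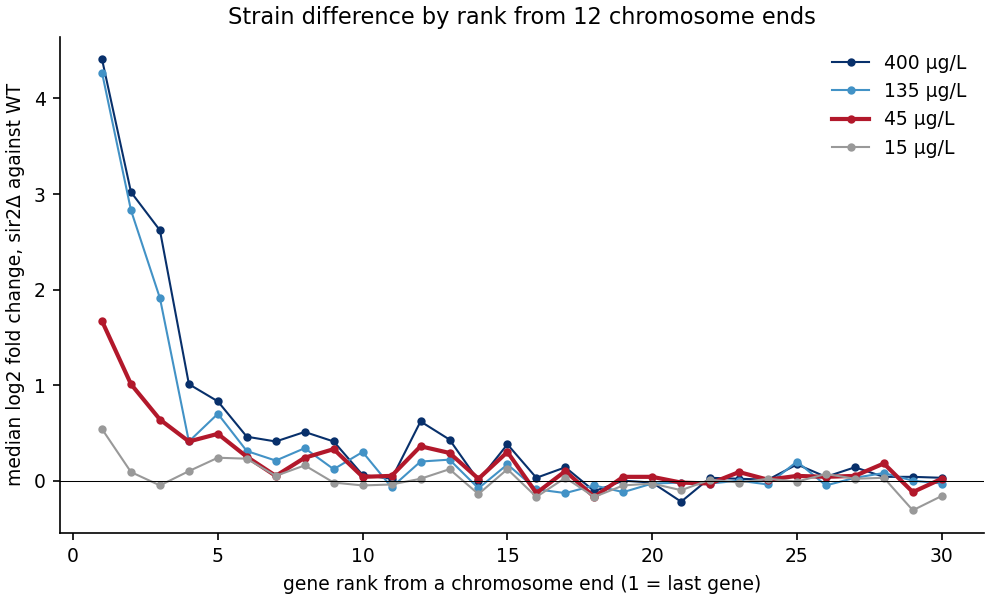
Median log2 fold change of sir2Δ against WT at each gene rank from the 12 chromosome ends (rank 1 is the last gene of an end), 1 line per nicotinic acid level. At rank 1 the line for 45 µg/L stands at 1.67, between 4.41 at 400 µg/L and 0.54 at 15 µg/L, and from rank 6 on no median at any level is above 0.62.

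The strain difference at 45 µg/L was then compared with that at 400 µg/L, with which it shares no library. The difference between the 2 was called in 220 genes (4.21%): the strain difference was lower at 45 µg/L in 162 (3.10%) and higher in 58 (1.11%). This count depended on single libraries. It was 702 without library 1 of WT at 400 µg/L, 118 and 131 without sir2Δ replicates 1 and 2 at 400 µg/L, 377 and 142 without WT replicates 5 and 6 at 45 µg/L, and 165 to 305 without each other replicate of the 4 groups. Under upper-quartile scaling the split changed from 26.4% to 52.0% higher.

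KLLA0_C06677g, which has no symbol, stood at 1340 and 1290 CPM in WT and at 1460 and 1370 CPM in sir2Δ at 45 µg/L (0.10 ± 0.09, adjusted p = 0.38). At 400 µg/L it stood at 142 and 121 CPM in WT and at 1240 and 1210 CPM in sir2Δ. The strain difference was thus 3.11 lower at 45 µg/L (adjusted p = 4e-10). Its neighbour KLLA0_C06699g differed by 0.75 ± 0.09 at 45 µg/L and by 3.38 at 400 µg/L, and URH1, the next gene, by 0.49 and 1.10. The gene on its other side, HPT1, a purine salvage enzyme, showed 0.49 and 0.66 with no call for the change (adjusted p = 0.52).

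Among the genes of the NAD+, pheromone and meiosis lists, TNA1, STE4, GPA1, NPT1 and IME1 had the following changes. From 400 to 45 µg/L the strain difference changed by -2.44 in TNA1 (adjusted p = 5.6e-09), by -1.62 in STE4 (adjusted p = 6.7e-08), by -1.52 in GPA1 (adjusted p = 1.1e-05), by -1.42 in NPT1 (adjusted p = 4e-07) and by -1.24 in IME1 (adjusted p = 8.4e-05). Of the 33 pheromone genes, STE4 and GPA1 were the 2 called (6.06%, against 3.10% of all genes called in that direction). STE18 was not called (-0.95, adjusted p = 0.082). TNA1 had 408 and 439, 977 and 1020, 2590 and 2490, and 3330 and 3370 CPM in WT at 400, 135, 45 and 15 µg/L, and NPT1 had 159 and 143, 190 and 193, 447 and 493, and 1190 and 1230 CPM. WT libraries of both genes were higher at each lower level without overlap, and in sir2Δ the range was 1860 to 2510 CPM for TNA1 and 726 to 1190 CPM for NPT1. Adjacent genes did not share the change of TNA1: RAD2 differed by 0.40 at 45 and 0.35 at 400 µg/L, and KOG1 by -0.11 and -0.12. Further out, PFS1 differed by 3.66 and 4.39 and IKI1 by -0.64 and -0.95, with no call for the change in either.

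**Figure D3:**
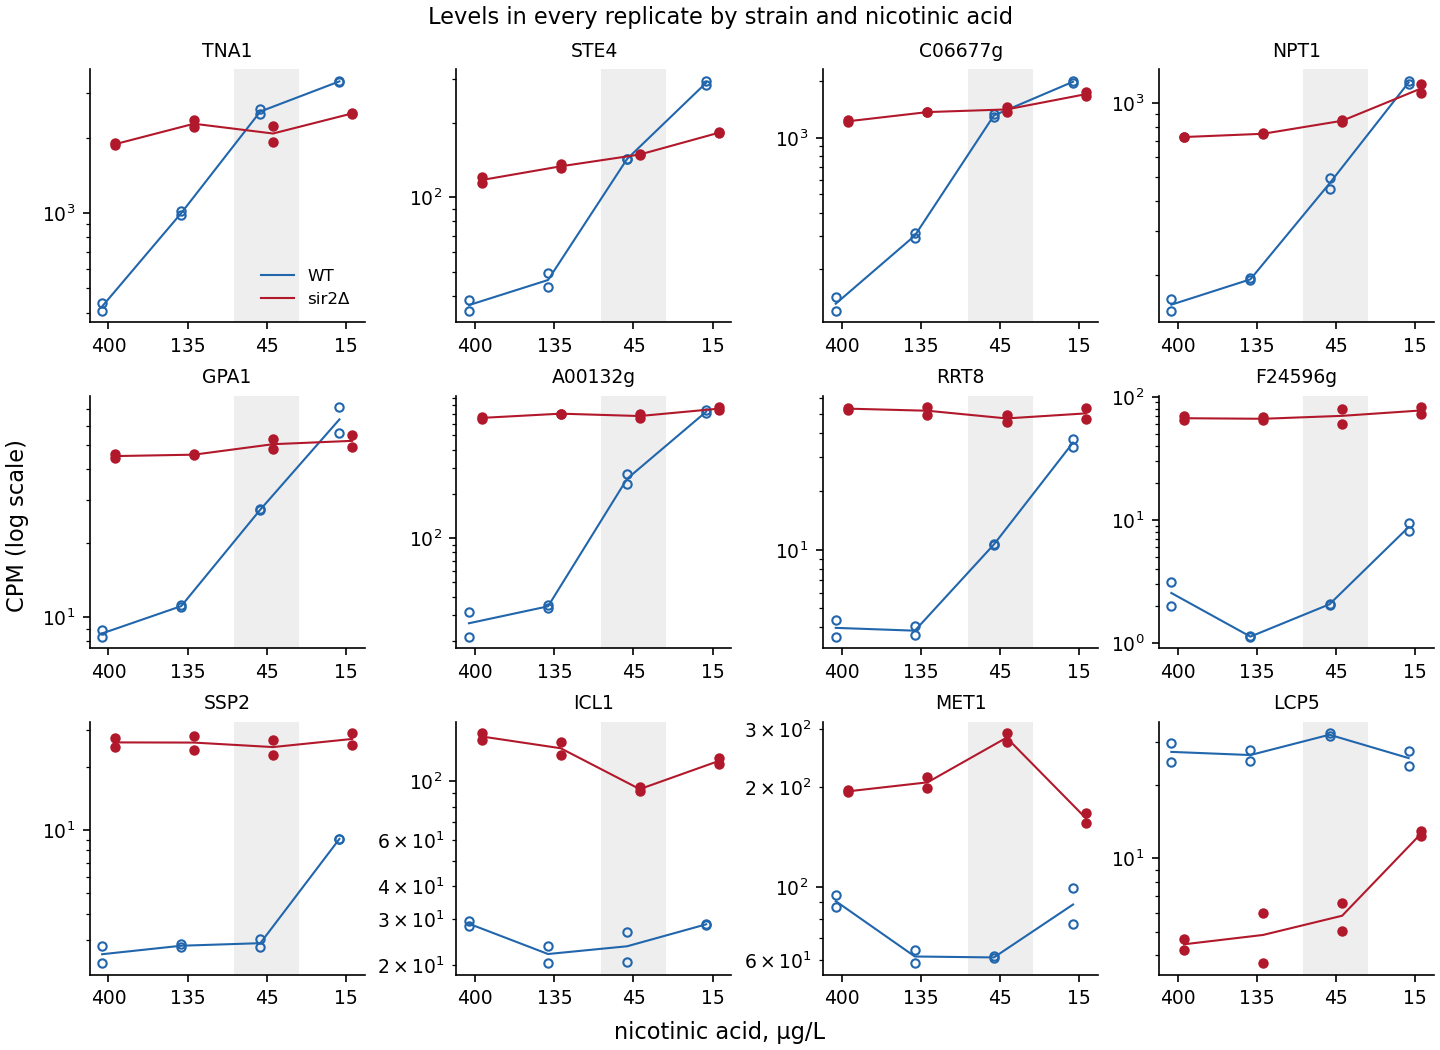
Level of 12 genes (1 panel each, CPM on log axes that differ between panels) against nicotinic acid in µg/L, with open blue points for WT replicates, filled red points for sir2Δ replicates and lines through the means. In the shaded 45 µg/L column WT meets sir2Δ in STE4 and KLLA0_C06677g, passes it in TNA1, lies part way in NPT1, GPA1, KLLA0_A00132g and RRT8, and stays far below in KLLA0_F24596g and SSP2.

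Of the 162 genes with a lower strain difference at 45 µg/L, 42 lay at ranks 1 to 15 of a chromosome end. They are 23.6% of the genes tested at those ranks, against 3.10% of all genes. Some of the 42 belong to the groups of possible copies described above. WT was called higher at 45 than at 400 µg/L in 122 of the 162 genes, against 7.20% of all genes. In 40 of the 162, sir2Δ was called lower, against 7.83%. These counts use the same libraries as the interaction and stand here as a description. Of the 58 genes with a higher strain difference at 45 µg/L, 47 were higher and 0 lower in sir2Δ at 45 than at 400 µg/L, against 10.7% and 7.83% of all genes, and 18 were lower in WT, against 3.46%.

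MET1, which makes the siroheme cofactor of sulfite reduction, was among those 58 genes. It stood at 60.8 and 61.6 CPM in WT and at 274 and 291 CPM in sir2Δ at 45 µg/L (2.21 ± 0.10, adjusted p = 3.1e-10), and the strain difference exceeded that at 400 µg/L by 1.10 (adjusted p = 0.0001). MEP3, an ammonium permease, stood at 100 and 92.8 CPM in WT and at 149 and 132 CPM in sir2Δ at 45 µg/L (0.54 ± 0.09), while at 400 µg/L the order was reversed (-0.49). HSP82, the Hsp90 chaperone, changed sign likewise, with 278 and 271 against 387 and 337 CPM at 45 µg/L (0.40 ± 0.08) and -0.39 at 400 µg/L. In all, 12 genes were called in opposite directions at the 2 levels.

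**Figure D4:**
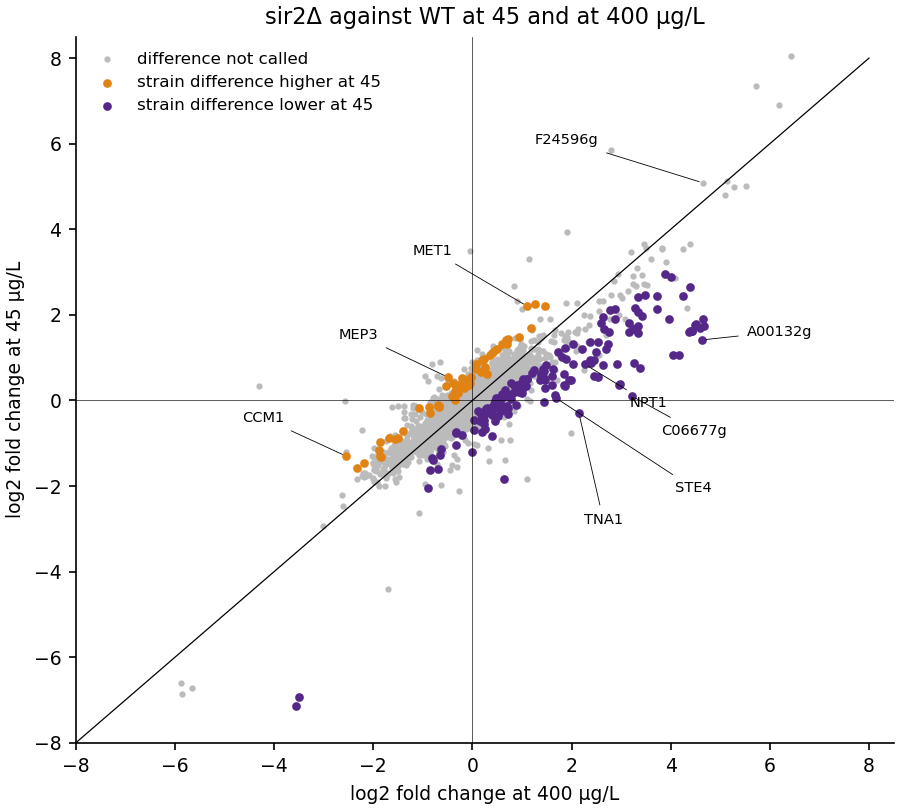
Log2 fold change of sir2Δ against WT at 45 µg/L (y axis) against that at 400 µg/L (x axis) for each tested gene, with genes whose strain difference was called lower at 45 µg/L in purple (162) and higher in orange (58). The purple genes on the right, such as KLLA0_A00132g and TNA1, lie below the line of equal difference.

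A set fixed by the difference at 400 µg/L shows how much of it was left at 45 µg/L. At 400 µg/L, 236 genes (4.52%) were higher in sir2Δ by at least 1 log2 unit. Of these, 221 were also called higher at 45 µg/L, 14 were not called, and TNA1 was called lower. Their median difference was 1.90, 1.69, 1.22 and 0.57 at 400, 135, 45 and 15 µg/L. The first of these values is raised by the choice of genes at that level. The median WT level was 26.8%, 30.9%, 42.8% and 67.6% of the sir2Δ level at those levels. The first of these shares is lowered by the same choice. At 45 µg/L, WT was under 25% of sir2Δ in 54 of the 236, between 25% and 50% in 91, between 50% and 80% in 81, and at 80% or more in 10.

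Of these genes, 59 lay at chromosome-end ranks 1 to 15 and 177 elsewhere, and no difference between these 2 sets was tested. HMLALPHA1, HMLALPHA2 and KLLA0_C00396g are among the 59. The end genes went from a median WT level of 15.4% at 400 µg/L to 47.9% at 45 µg/L and 80.9% at 15 µg/L, and the others from 27.7% to 41.5% and 62.3%. The 243 genes lower in sir2Δ by at least 1 at 400 µg/L (4.65%) were called lower at 45 µg/L in 226 cases. Their medians were -1.47, -1.03, -1.20 and -0.65 at 400, 135, 45 and 15 µg/L. The 15.4%, 27.7% and -1.47 at 400 µg/L are made more extreme by the choice of genes at that level. Part of the move from 400 to 45 µg/L may come from that choice.

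Against the next higher level, 135 µg/L, the strain difference at 45 µg/L was called changed in 107 genes (2.05%), 81 lower (1.55%) and 26 higher (0.498%). The 107 became 205 without WT replicate 5 and 62 without WT replicate 6 at 45 µg/L, and 45, 56, 47 and 51 without sir2Δ replicates 3 and 4 and WT replicates 3 and 4 at 135 µg/L. KLLA0_A00132g changed by -2.94 (adjusted p = 4.3e-08), KLLA0_C06677g by -2.07 and RRT8 by -1.60. Against 15 µg/L, 537 genes (10.3%) were called, with the strain difference higher at 45 µg/L in 313 (5.99%) and lower in 224 (4.29%). The 537 became 308 without sir2Δ replicate 8 and 349 without WT replicate 7 at 15 µg/L. TNA1 had the same sign at 45 and 15 µg/L, and its change of 0.13 between them was not called (adjusted p = 0.57).

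Ribosome biogenesis genes formed the largest block of lower transcripts. Of 140 tested, 139 were called lower in sir2Δ at 45 µg/L and 0 higher, with a median of -1.21. LCP5, of the small-subunit processing machinery, stood at 32.5 and 31.7 CPM in WT and at 5.06 and 6.58 CPM in sir2Δ (-2.47 ± 0.19, adjusted p = 3.6e-08). DIM1, an rRNA dimethylase, stood at 48.1 and 49.4 against 13.2 and 11.2 CPM (-2.0 ± 0.12), and BUD21, of the same machinery as LCP5, at 29.6 and 37.1 against 7.02 and 9.83 CPM (-2.0 ± 0.18). The strains did not overlap at these genes. UTP22, of the small-subunit processome, was the member not called (-0.23 ± 0.14). The list median was -1.43 at 400 µg/L, -1.04 at 135 µg/L and -0.61 at 15 µg/L. A strain difference called higher at 45 than at 400 µg/L was held by 5.00% of members, against 1.11% of all genes. NOP4, DBP9, UTP8 and RRP36 were among 7 members whose strain difference was smaller in size at 45 than at 400 µg/L, but with a library or replicate left out that call was lost in 8 of 9 fits in RRP36, in 4 in DBP9 and in 3 in NOP4.

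Genes for the ribosome itself stood closer to the background in the share called lower, but few were called higher. Of 57 cytosolic ribosomal protein genes 7 were lower and 0 higher (median -0.15), and of 67 mitochondrial ribosomal protein genes 10 were lower and 1 higher (median -0.17). These are 12.3% and 14.9% lower, against 18.7% of all genes, and 0.00% and 1.49% higher, against 20.9%. The counts of lower members rested on single libraries. Cytosolic genes called lower numbered 3, 19, 20 and 2 without sir2Δ replicates 5 and 6 and WT replicates 5 and 6, and mitochondrial ones 4, 19, 13 and 3. DNA replication genes and histones were lower in 23 of 50 members and higher in 3 (median -0.20). RNR3, a large subunit of ribonucleotide reductase, stood at 638 and 661 CPM in WT and at 309 and 257 CPM in sir2Δ (-1.20 ± 0.11, adjusted p = 2.1e-07), and CDC45, of the replicative helicase, at 44.9 and 44.0 against 24.7 and 22.0 CPM (-0.93 ± 0.11). The replication factor A genes RFA1, RFA2 and RFA3 were 0.71 to 0.89 lower. HTA1, a histone H2A gene, was higher (0.31 ± 0.08).

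Among called genes with at least 1 CPM and no overlap, the neighbouring pairs described above, SIR2, LCP5 and RBP95 were lowest. RBP95 encodes an rRNA-binding protein (-2.21 ± 0.19). Next lowest was KLLA0_F01595g, beside BNA3. It stood at 1360 and 1490 CPM in WT and at 400 and 293 CPM in sir2Δ (-2.04 ± 0.14, adjusted p = 8e-09), a 4.11-fold lower level. At 400 µg/L it stood at 678 and 823 CPM in WT and at 404 and 398 CPM in sir2Δ, and the strain difference was 1.14 larger in size at 45 µg/L (adjusted p = 0.0014). The sir2Δ libraries over all levels ranged from 293 to 433 CPM. KLLA0_B00473g, the 14th gene from the left end of chromosome B, stood at 245 and 257 CPM in WT and at 69.0 and 64.7 CPM in sir2Δ (-1.91 ± 0.08, adjusted p = 1.1e-10), against the direction of most genes near the ends.

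Genes of central carbon metabolism were mostly higher in sir2Δ. Glycolysis and fermentation had 9 of 11 members higher and 1 lower, with a median of 0.86. FBA1, the aldolase, stood at 9170 and 9530 CPM in WT and at 19200 and 18400 CPM in sir2Δ (1.01 ± 0.10, adjusted p = 8.1e-07), and GPM1, phosphoglycerate mutase, at 3610 and 4310 against 7840 and 8730 CPM (1.07 ± 0.11). PFK1 and PFK2, the subunits of phosphofructokinase, and TPI1, triose phosphate isomerase, were 0.92 to 1.08 higher. ADH3, an alcohol dehydrogenase, was lower (469 and 493 against 379 and 310 CPM, -0.48 ± 0.10). Of 5 lactose and galactose genes 4 were higher, among them GAL1 (0.68 ± 0.09) and GAL10 (0.94 ± 0.13), both of galactose breakdown. LAC4 and LAC12 have no symbol in the reference and were not matched.

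Glyoxylate, acetate and fatty acid genes were higher in 18 of 35 members (51.4%, against 20.9% of all genes) and lower in 4 (11.4%, against 18.7%). Their median was 0.41. ICL1, isocitrate lyase, stood at 26.7 and 20.6 CPM in WT and at 91.6 and 95.2 CPM in sir2Δ (1.98 ± 0.11, adjusted p = 1.4e-09). POX1, the acyl-CoA oxidase of peroxisomes, was 1.39 ± 0.14 higher and IDP3, a peroxisomal isocitrate dehydrogenase, 1.19 ± 0.08 higher. MDH2, a cytosolic malate dehydrogenase (-0.81 ± 0.10), ACS2, an acetyl-CoA synthetase (-0.66 ± 0.14), CIT2 and YAT1 were the lower members. ACS1, the other acetyl-CoA synthetase, was not called (133 and 138 against 76.9 and 130 CPM), with 1 sir2Δ library far below the other. Respiratory chain and ATP synthase genes were higher in 21 of 35 (60.0%, against 20.9% of all genes) and lower in 1, with small differences (median 0.31). The count of higher members depended on single libraries. It fell without sir2Δ replicate 5, WT replicate 5 or WT replicate 6, and rose without sir2Δ replicate 6. GUT2, the mitochondrial glycerol-3-phosphate dehydrogenase, had the largest (0.82 ± 0.07).

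Amino acid synthesis genes were higher in 43 of 77 members (55.8%, against 20.9% of all genes) and lower in 10 (13.0%, against 18.7%). Their median was 0.24. The 10 became 6 without WT replicate 6. The members of sulfur assimilation and of methionine and cysteine synthesis, split off after the values were seen, were higher in 13 of 15 and lower in 2 (median 0.92), against 30 and 8 of the other 62 (median 0.21), where the 8 became 4 without WT replicate 6. MET3, ATP sulfurylase, stood at 533 and 549 CPM in WT and at 1210 and 1220 CPM in sir2Δ (1.17 ± 0.08, adjusted p = 1.2e-08), and MET17, which makes homocysteine, at 1180 and 1190 against 2380 and 2160 CPM (0.94 ± 0.09). MET6 and MET13, of methionine synthesis from homocysteine, were the lower members (-0.68 ± 0.12 and -0.56 ± 0.12). In 8 of the 15 (53.3%, against 1.11% of all genes), MET1 included, the strain difference was called higher at 45 than at 400 µg/L. MET4, the transcriptional activator of sulfur genes, showed 0.85 ± 0.10 at 45 and 0.07 at 400 µg/L.

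Smaller lists were mixed. Phosphate genes were higher in 9 of 18 (50.0%, against 20.9% of all genes) and lower in 2 (11.1%, against 18.7%). PHO92, an RNA-binding protein, stood at 13.4 and 13.5 CPM in WT and at 68.6 and 74.5 CPM in sir2Δ (2.41 ± 0.11, adjusted p = 2.5e-10). SPL2, a regulator of phosphate transport, stood at 25.6 and 30.7 against 96.7 and 92.3 CPM (1.75 ± 0.10). Iron uptake genes were lower in 5 of 17 (29.4%, against 18.7% of all genes) and higher in 1 (5.88%, against 20.9%). PUL3, which in K. lactis carries the iron chelate pulcherrimin, stood at 373 and 384 CPM in WT and at 196 and 186 CPM in sir2Δ (-0.99 ± 0.09), and FET3, the iron oxidase, was 0.68 lower. Stress genes were higher in 16 of 25 and lower in 2, with HSP78, a mitochondrial chaperone (1.08 ± 0.19), and HSP104, a disaggregase (0.85 ± 0.14), among the higher.

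Thiamine and pyridoxine genes were higher in 4 of 10 (40.0%, against 20.9% of all genes) and lower in 1 (10.0%, against 18.7%). THI2, an activator of thiamine genes, stood at 13.9 and 17.0 CPM in WT and at 37.1 and 42.3 CPM in sir2Δ (1.36 ± 0.12), and PDX3, which makes pyridoxal phosphate, was 1.02 ± 0.10 higher. Nitrogen genes were higher in 8 of 26 (30.8%, against 20.9% of all genes) and lower in 5 (19.2%, against 18.7%), among them GDH3, a glutamate dehydrogenase (0.86 ± 0.10), and AGP2, a permease (-0.70 ± 0.09). Of 22 silencing factors and deacetylases, ESC1 (0.45 ± 0.10) and HDA2 (0.31 ± 0.09) were higher and RIF1, a telomere protein, was lower (-0.57 ± 0.08). The call of ESC1 was lost without sir2Δ replicate 5 (0.28, adjusted p = 0.053) and that of HDA2 without WT replicate 6 (0.24, adjusted p = 0.10). SUM1, the repressor, stood at 97.6 and 87.3 CPM in WT and at 114 and 95.3 CPM in sir2Δ (0.18 ± 0.10, adjusted p = 0.20), with overlapping libraries, and the Sir2 relatives HST2, HST3 and HST4 were not called.

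**Figure D5:**
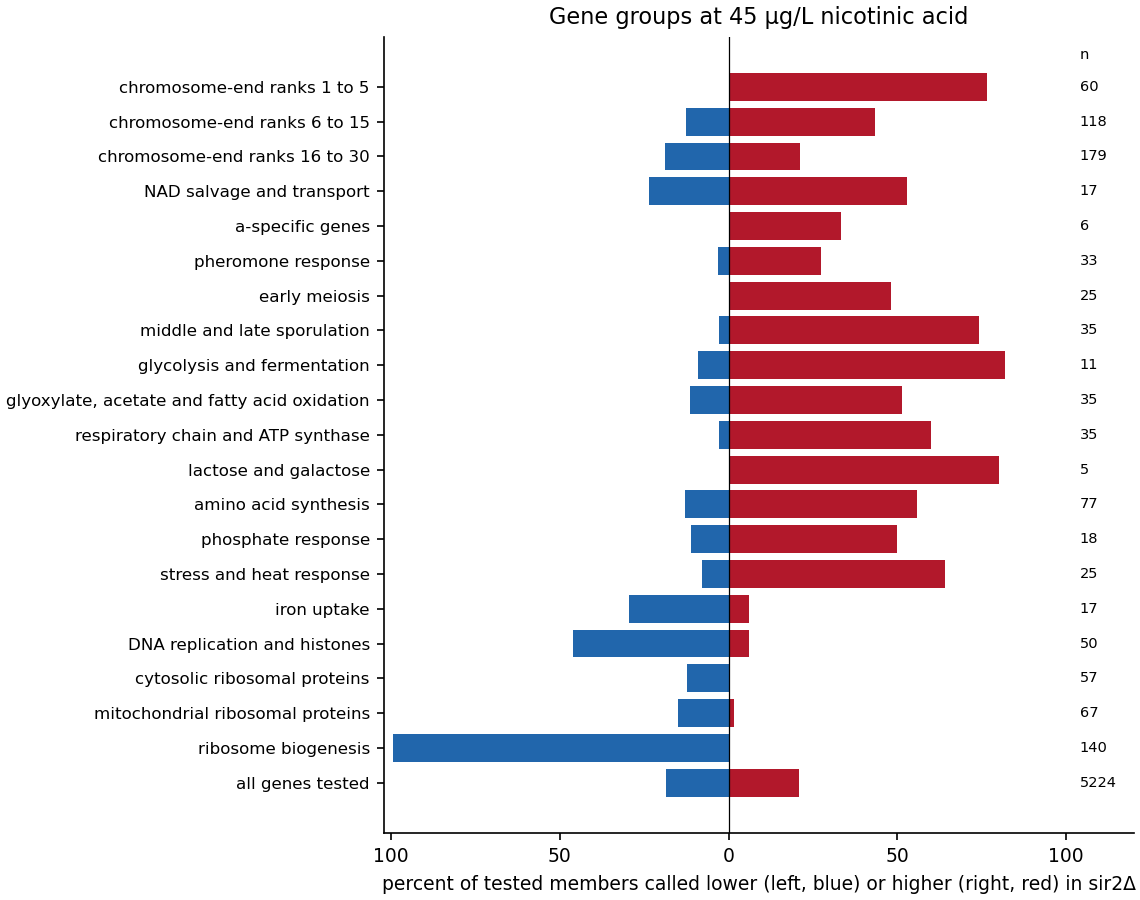
Percent of the tested members of each gene group called higher (red, to the right) or lower (blue, to the left) in sir2Δ at 45 µg/L, with the number tested at the right edge. The bottom row gives all 5224 genes, with 20.9% higher and 18.7% lower, against 76.7% higher at chromosome-end ranks 1 to 5 and 99.3% lower for ribosome biogenesis.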

How the data were processed

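Per the labels, RNA was poly(A) selected and sequenced as paired 150 bp reads. The authors deposited whole-number read counts for 5335 genes. The submitters' processing notes name Bowtie2, cutadapt, DESeq2, FastQC, featureCounts, MultiQC and SAMtools, with no role or order. Tool versions, the genome build, the annotation, strand settings and how reads with several matches were counted were not given in the sources used here, so near-identical, overlapping or antisense genes are uncertain. Symbols and gene order came from RefSeq assembly ASM251v1, in which 4043 genes had a symbol. No promoter or other sequence was used here.

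The counts went into edgeR 4.0.16 under R 4.3.3 (quasi-likelihood test, robust fit) after filterByExpr with a minimum count of 10, which kept 5224 genes and removed 111. TMM factors and 1 mean for each of 8 groups over 16 columns were used, with both libraries numbered 1 (1 and 1R) of the WT group at 400 µg/L added together. CPM values use TMM factors, and fold changes a prior count of 0.125. Benjamini-Hochberg adjustment ran over all 5224 genes, with calls under 0.05. DESeq2 1.42.0 was an alternative. The steps were tested on simulated data. A count of 0 allows up to 3 reads, 0.0833 to 0.122 CPM in the libraries at 45 µg/L, for counting error only. No pair of replicate libraries agreed within counting error. The genes, lists and comparisons were chosen with earlier results of these data known. Genes named are the 12 highest and 12 lowest called at 45 µg/L (at least 1 CPM in the higher strain, no overlap), up to 8 called members per list, a short set always given, and the most changed between levels. Genes beside these, such as neighbours and uncalled list members, were chosen after their values were seen.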

Additional observations from a re-analysis of the deposited data

Results flagged for a closer look

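For each gene below, the change of the strain difference between 45 µg/L and another nicotinic acid level was itself called in the model over all 8 groups (edgeR's quasi-likelihood test with Benjamini-Hochberg adjustment). Values are log2 differences of strain differences, 45 µg/L minus the other level, with 2 replicates in each group.

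Against 400 µg/L, the lowest values belonged to KLLA0_C03157g (-3.57) and KLLA0_B14575g (-3.43) of the neighbouring pairs above, whose sir2Δ levels rest on few reads. In both, the strain difference grew in size, from -3.57 to -7.14 and from -3.51 to -6.94. WT was higher at 45 than at 400 µg/L by 2.41 (adjusted p = 3.7e-07) and 2.46 (adjusted p = 1.2e-07), and the change in sir2Δ was not called. The called change of -3.43 in KLLA0_B14575g was lost without sir2Δ replicate 1 at 400 µg/L (-2.96). Chromosome-end genes followed, with -3.22 in KLLA0_A00132g, -3.12 in KLLA0_C00132g, -2.97 in KLLA0_D20009g, -2.92 in KLLA0_A00110g, -2.89 in KLLA0_E00111g, -2.80 in KLLA0_B00143g, -2.79 in KLLA0_F00154g, -2.77 in KLLA0_E00133g, -2.75 in KLLA0_D20031g and -2.74 in KLLA0_F00132g. All of these end genes belong to the groups of equal coding length described above, so they may be fewer loci than names. KLLA0_C06677g, inside chromosome C, changed by -3.11.

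In genes of NAD+ metabolism the change was -2.44 in TNA1, -1.42 in NPT1 and -0.61 in URH1, and beside BNA3 it was -1.14 in KLLA0_F01595g. The pheromone genes STE4 and GPA1 changed by -1.62 and -1.52. Among meiotic and sporulation genes the change was -1.57 in RRT8, -1.24 in IME1, -0.98 in CRR1, -0.78 in OSW2, -0.66 in both SPS4 and ZIP2, and -0.59 in MUM2. The thiamine genes THI73 and THI2 changed by -1.77 and -1.02, the phosphate genes SPL2 and PHO92 by -1.58 and -0.93, and CAR2, of ornithine metabolism, by -0.59.

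The strain difference was higher at 45 than at 400 µg/L in sulfur genes, by 1.10 in MET1, 0.78 in MET4, 0.74 in MET3, 0.73 in MET17, 0.72 in MET2, 0.71 in MET5 and 0.53 in STR3. It was higher by 1.03 in MEP3, and by 0.88 and 0.79 in the chaperone genes SSA2 and HSP82. In genes lower in sir2Δ at both levels the change was 1.24 in CCM1, 0.89 in UTP8, 0.80 in RRP36, 0.76 in NOP4 and 0.74 in DBP9. Genes with no symbol in this direction were KLLA0_B09064g (0.98), KLLA0_E06227g (0.91) and KLLA0_F21252g (0.72). With 1 replicate left out, the call of KLLA0_E06227g was lost in 6 fits, with values down to 0.62 without sir2Δ replicate 5 at 45 µg/L (adjusted p = 0.20), and the calls of RRP36, DBP9 and NOP4 were lost in the fits counted above.

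Against 135 µg/L, the chromosome-end genes KLLA0_A00132g, KLLA0_A00110g, KLLA0_E00111g, KLLA0_C00132g and KLLA0_F00132g changed by -2.94, -2.77, -2.76, -2.75 and -2.75. The change was 1.04 in KLLA0_E24927g, 0.98 in KLLA0_F21252g, 0.74 in MEP3, 0.73 in the ferric reductase gene FRE1 and 0.69 in ARA1, an arabinose dehydrogenase gene.

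Against 15 µg/L, the strain difference was higher at 45 µg/L by 2.80 in KLLA0_F05379g, 2.77 in KLLA0_D13288g, 2.58 in KLLA0_B08261g, 2.39 in KLLA0_E15203g and 2.25 in KLLA0_D17677r. It was lower by the following changes: -2.35 in ACS1, -1.64 in the carnitine carrier gene CRC1, -1.58 in KLLA0_E11881g, -1.52 in SNR14, a spliceosomal RNA, and -1.45 in CGR1, of ribosome biogenesis.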

How the results depend on the processing

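At 45 µg/L, the counts of 1092 higher and 977 lower genes became 651 and 694 with only the 4 libraries at this level, 872 to 1025 and 781 to 929 with 1 of those libraries left out, and 1214 and 1127 with the replicate number as a block. Of the 1345 genes called from the 4 libraries alone, 1344 were among the 2069 with the same direction. Deviations of same-numbered libraries correlated at -0.14, -0.12, 0.28 and 0.18 at 400, 135, 45 and 15 µg/L. The main fit did not pair libraries by number, and these values do not settle whether they pair at 45 µg/L. Chromosome-end ranks 1 to 15 (54.5% higher) gave 76.7% for 5 genes per end, 37.8% for 30, 40.7% with only the 4 libraries, and 46.6% to 51.7% with 1 left out. For 45 against 400 µg/L, 58 higher and 162 lower genes became 108 and 249 with DESeq2, 152 and 275 with the replicate block, 253 and 449 without library 1, 127 higher with upper-quartile factors, and 21 to 151 and 97 to 226 with 1 replicate left out. Upper-quartile scaling moved the median of all genes in that comparison to 0.08. For 45 against 135 µg/L, 26 and 81 became 61 and 178 with DESeq2, 70 and 137 with the replicate block, 42 higher without library 1, and 7 to 72 and 38 to 133 with 1 replicate left out. For 45 against 15 µg/L, 224 lower became 343 with the replicate block, and 313 and 224 became 191 to 364 and 117 to 263 with 1 replicate left out. A lone sample in a group was assumed to vary like the others. The cause of these shifts was not tested. Over 195 named genes none changed direction: 2654 values kept their side of the threshold and 121 lost the call, none gained one. Most of these genes were named because they were called in the main fit, so few could gain a call. The values cover strain differences at 45 µg/L and, for some genes, their change from 400 µg/L. With the replicate block 1 named gene, MRPL44, lost its call. The promoter motif search was not run. Differences of low genes are limited by depth, with a floor of 0.0833 to 0.122 CPM.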

Other observations

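Genes of phospholipid and choline metabolism, grouped after their values were seen, were mostly lower in sir2Δ at 45 µg/L: 10 of 16 tested were called lower and 2 higher, with a median of -0.56. OPI1, the repressor of phospholipid synthesis genes in S. cerevisiae, stood at 189 and 200 CPM in WT and at 50.0 and 53.8 CPM in sir2Δ (-1.91 ± 0.09). HNM1, the choline permease, stood at 793 and 764 against 273 and 227 CPM, and OPI3, which makes phosphatidylcholine, at 207 and 246 against 85.9 and 87.3 CPM. INO1, the inositol phosphate synthase, had the other direction, with 42.7 and 47.0 CPM in WT and 88.8 and 88.3 CPM in sir2Δ (0.98 ± 0.11).

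Transcripts of the mitochondrial genome took 0.0331% and 0.0251% of the reads in WT and 0.0638% and 0.0551% in sir2Δ at 45 µg/L. Of 13 tested, 6 were higher and 0 lower in sir2Δ, with a median of 1.17, in libraries selected for poly(A). The 6 became 3 without sir2Δ replicate 5.

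Some genes near a gene with a changed strain difference, chosen after their values were seen, had a called change too. Most of the neighbours looked at had none, among them TBF1 beside STE4 and KLLA0_E09813g beside MET3. KLLA0_D06809g, near STE4, differed between strains by 0.30 at 45 and 1.46 at 400 µg/L. KLLA0_E09857g, near MET3, differed by -0.02 and 1.44. Apart from these neighbours, KLLA0_B09064g, which has no symbol, was higher in sir2Δ at 45 µg/L (2.25 ± 0.12). It stood at 196 and 217 CPM in WT and at 970 and 996 CPM in sir2Δ. Its strain difference was 1.27 at 400, 2.32 at 135 and 3.39 at 15 µg/L.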
